A study of Mus musculus with 2 samples.

Results

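Aoc1, Gpx3, Slc5a5, Agps, Tmem86a and Aqp5 are 6 of the 32285 genes counted in single cells of the mouse mammary gland. They were chosen by their measured ratio between the libraries in hormone luminal cells, as genes of these cells with fewer UMIs (unique molecules counted) in the library of treated mice than in that of control mice, so this difference is given below as a description, with no test. The study asked what the removal of macrophages by clodronate liposomes, vesicles that kill the phagocytes that ingest them, does to the cells of the gland. One library was made from control mice and one from mice that had received repeated intraperitoneal injections of clodronate liposomes (CL), so there was 1 library per group. The mice were wild-type females, 9 to 10 weeks old by the labels and 8 to 10 weeks old by the protocol. Both groups shared the digestion and a sort that removed CD31+ and TER119+ cells, and how many mice were pooled was not given in the sources used here.

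Hormone luminal cells are the hormone-sensing cells of the mammary ducts. They carry the receptors for oestrogen, progesterone and prolactin and answer these hormones with paracrine signals, such as amphiregulin and Wnt4, to the other epithelial cells. The 6 genes act at different points outside and inside the cell: Aoc1 encodes diamine oxidase, a secreted enzyme that breaks down histamine and putrescine, and Gpx3 encodes the secreted selenium-dependent glutathione peroxidase. Slc5a5 encodes the sodium iodide symporter, which brings iodide into the lactating gland for milk, and Aqp5 encodes a water channel of glandular epithelia. Agps encodes the peroxisomal enzyme that forms the ether bond of ether lipids such as plasmalogens, and Tmem86a encodes a lysoplasmalogenase, which cleaves that class of lipid.

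On GRCm38, with the GENCODE M21 annotation, Aoc1 lies at chr6:48872896-48909188 on the plus strand and Gpx3 at chr11:54902453-54910377 on the plus strand. Slc5a5 lies at chr8:70882889-70892757 on the minus strand, and Agps lies at chr2:75832177-75931350 on the plus strand. Tmem86a spans chr7:47050601-47054777 and Aqp5 spans chr15:99590782-99594829, both on the plus strand. All 6 are protein-coding genes on 6 different chromosomes, and none of them overlaps another annotated gene.

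Because 5 of these genes differed between the libraries in the same direction and by more than 2-fold, their promoters were read from RefSeq (GRCm38.p6) as the 250 bases before each annotated start, 7 windows for 6 genes. Both strands were searched for AGGTCA (core of the oestrogen receptor site), AGAACA (core of the progesterone, glucocorticoid and androgen receptor site), TTCNNNGAA (STAT site), TGTTTAC (forkhead site), AGATAA (binding motif of GATA factors) and TATAAA (core promoter box). The 3 windows below are shown because the first 2 held the only matches, in capitals, and the last is the CpG-rich promoter of the iodide symporter, which had none. Bases inside annotated exons were left off the Gpx3 window. All are written 5′ to 3′ on the strand of the gene, Aoc1 from chr6:48904736-48904985 (plus), Gpx3 from chr11:54902604-54902771 (plus) and Slc5a5 from chr8:70892758-70893007 (minus).
Aoc1: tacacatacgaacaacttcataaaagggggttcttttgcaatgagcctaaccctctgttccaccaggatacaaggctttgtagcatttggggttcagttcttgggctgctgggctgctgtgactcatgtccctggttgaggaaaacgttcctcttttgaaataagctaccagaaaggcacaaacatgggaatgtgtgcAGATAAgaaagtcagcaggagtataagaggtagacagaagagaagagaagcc
Gpx3: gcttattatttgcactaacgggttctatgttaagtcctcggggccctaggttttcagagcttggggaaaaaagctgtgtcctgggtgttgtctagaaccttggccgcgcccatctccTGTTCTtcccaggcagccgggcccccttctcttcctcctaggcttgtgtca
Slc5a5: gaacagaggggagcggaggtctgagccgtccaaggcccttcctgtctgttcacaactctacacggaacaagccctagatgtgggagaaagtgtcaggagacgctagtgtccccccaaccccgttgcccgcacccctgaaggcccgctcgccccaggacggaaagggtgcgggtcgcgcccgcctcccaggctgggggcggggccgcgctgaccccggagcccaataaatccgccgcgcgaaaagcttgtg

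The Aoc1 window held AGATAA, which began 52 bases before its RefSeq start. Of all 32851 mouse promoter windows of this length, 9.99% hold that motif on either strand. The Aoc1 windows and the Gpx3 window lay inside the gene spans given above, so the bases before the GENCODE starts of these genes were not searched. The Gpx3 window held TGTTCT, the reverse complement of AGAACA, 133 bases before its RefSeq start, and 16.1% of all windows hold that motif. The other 4 motifs, held by 14.0% (AGGTCA), 7.02% (TTCNNNGAA), 3.17% (TGTTTAC) and 12.4% (TATAAA) of all windows, were in none of the 7 windows of these genes. No motif was therefore shared by the 6 genes in these windows, and a match is a run of letters and not a site of binding. The windows also differed in base composition: G and C made up 45.6% and 51.2% of the Aoc1 windows, 55.2% of the Gpx3 window and 78.4% of the Aqp5 window, against a median of 52.4% over all windows. Some windows reached into annotated exons, by 246 of 250 bases for Aqp5, 82 for Gpx3, 39 for Tmem86a and 1 for an Aoc1 window. The Aqp5 window was therefore mostly exon sequence, and exon bases were counted in these shares.

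The library labelled Ctrl held 118743318 UMIs and the library labelled CL 155765480 UMIs, and 5905 and 8844 cells remained after filtering, with medians of 11352 and 10376 UMIs per cell. The barcode lists of the libraries shared 18 barcodes, and 22 matrix columns were among the candidate cells of both. The check of the treatment by macrophage markers went against its label in the sum of the markers. The sum of 9 markers was 68.4 CPM, counts per 1000000 UMIs (95% exact Poisson interval 66.7 to 70.2), in the library labelled Ctrl. It was 215 (213 to 218) in the library labelled CL. Of the clusters named macrophage-like, the one led by complement and MHC class II genes had 40 and 43 cells (Ctrl, then CL, 58.2% Ctrl after scaling for library size). This leaned with the label, but rests on few cells and was not tested. The other, with neutrophils as its next class, had 18 and 214 (11.2% Ctrl), against the label. Together macrophage-like cells made up 0.98% and 2.91% of cells, also against it. Basal-like cells made up 6.88% and 4.99% of cells (Ctrl, then CL). The study reports loss of macrophages in treated mice by staining and flow cytometry, and a lower macrophage share in its own analysis of its single-cell data. The macrophage-like shares here run against that report, and the reason was not tested. It also reports fewer basal cells in treated mice, by flow cytometry and in its single-cell data, so the basal-like shares run with the labels. Intervals here and below cover counting error only, since 1 library per group gives no measure of the spread between mice. Each direction below is therefore one between the libraries as labelled, called the Ctrl-labelled and the CL-labelled library.

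Of 26 clusters, made without the 6 genes, 6 were named hormone luminal-like from markers, with 2136 cells in the Ctrl-labelled library (36.2% of its cells) and 2649 in the CL-labelled library (29.95%). Its markers stood higher in the class than elsewhere in both libraries. Prlr, the prolactin receptor, stood at 3104 CPM in this class against 342 in all other cells of the Ctrl-labelled library, and at 2552 against 452 in the CL-labelled library. Areg, which encodes amphiregulin, stood at 2726 and 2784 CPM in the class, against 251 and 388 elsewhere. The transcriptional coregulator Cited1 stood at 954 and 1330, against 74.0 and 149. Over all 8 hormone luminal markers the sum was 7511 CPM in the Ctrl-labelled library and 7343 in the CL-labelled library. The sum of the markers was thus near the same level in both libraries, and none of them was at 0.

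The UMIs of the 6 genes lay mostly in these cells. In the Ctrl-labelled library 154442 of their 169822 UMIs, or 90.9% (exact binomial interval 90.8 to 91.1), were in hormone luminal-like cells, which held 51.5% of all UMIs. In the CL-labelled library the class held 60850 of 79333 UMIs, or 76.7% (76.4 to 77.0), against 42.5% of all UMIs. By gene the share ran from 87.4% for Aqp5 to 94.2% for Tmem86a in the Ctrl-labelled library and from 70.1% for Agps to 81.5% for Tmem86a in the CL-labelled library. One cluster was left unnamed because it carried hormone and secretory luminal markers together, and with it counted in the class the shares were 95.2% and 90.3%.

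Set against secretory luminal-like cells, the milk-protein lineage of the same ducts, all 6 genes were at least 2-fold higher in hormone luminal-like cells in both libraries. Such a difference was common: 24.5% of 12453 genes reached it in the Ctrl-labelled library and 23.4% of 12688 in the CL-labelled library. The differences ran from 7.34-fold (interval 7.08 to 7.62) for Aqp5 to 51.1-fold (43.0 to 61.2) for Tmem86a in the Ctrl-labelled library. In the CL-labelled library they ran from 4.77-fold (4.53 to 5.02) for Agps to 37.4-fold (33.5 to 41.8) for Gpx3. For comparison, Prlr differed 27.6-fold and 26.7-fold.

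**Figure D1:**
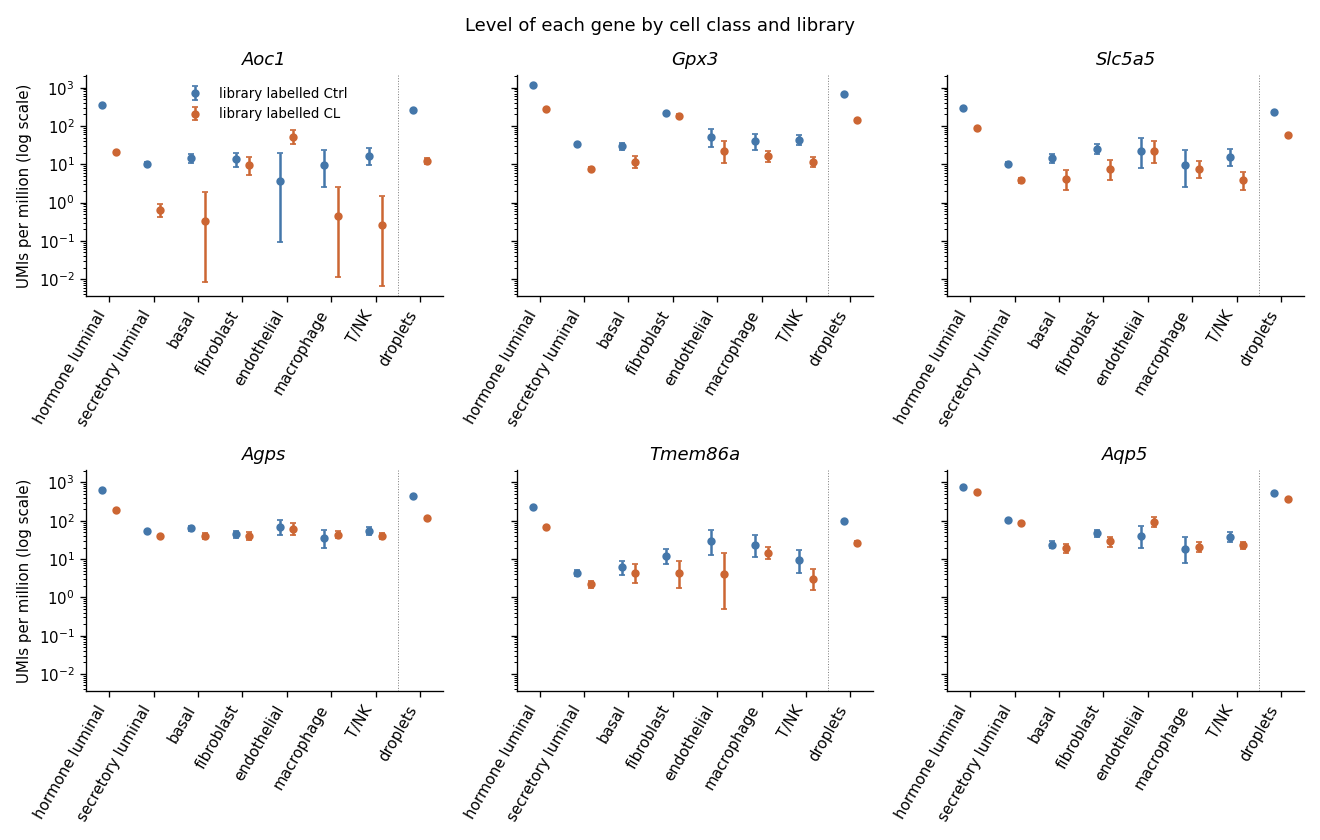
CPM (log axis) of each of the 6 genes in 7 cell classes and in droplets of 100 to 300 UMIs, blue for the Ctrl-labelled library and orange for the CL-labelled library; bars are 95% exact Poisson intervals. Hormone luminal-like cells and droplets stand above most other classes in both libraries, and the blue points stand above the orange ones in both of these columns for all 6 genes.

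Aoc1 differed most between the libraries. It was counted at 356 CPM (350 to 361) in hormone luminal-like cells of the Ctrl-labelled library and at 20.5 (19.3 to 21.8) in those of the CL-labelled library, from 15731 and 1032 UMIs. The log2 ratio, CL over Ctrl, was -4.12 (exact binomial interval -4.21 to -4.02), or 17.3-fold lower. Aoc1 UMIs were concentrated in few cells: with each cell thinned to 6929 UMIs, the tenth of cells with most Aoc1 UMIs held 63.1% of them in the Ctrl-labelled library, and in the CL-labelled library only 6.96% of cells had any. The highest count in 1 cell before thinning was 160 in the Ctrl-labelled library and 40 in the CL-labelled library.

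Gpx3 stood at 1175 CPM (1165 to 1186) in the Ctrl-labelled library and at 279.7 (275 to 284) in the CL-labelled library, from 52007 and 14075 UMIs. Its log2 ratio was -2.07 (-2.10 to -2.04), or 4.20-fold lower. Unlike Aoc1, Gpx3 was found in most cells of the class in both libraries, 92.3% and 77.3% before thinning.

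Slc5a5 stood at 300.8 CPM (296 to 306) in the Ctrl-labelled library and at 86.4 (83.9 to 89.0) in the CL-labelled library, a log2 ratio of -1.80 (-1.85 to -1.75). Aqp5, the other transport protein, stood at 782 (774 to 790.4) and 558 (552 to 565) CPM. Its log2 ratio of -0.49 (-0.51 to -0.46) was the smallest of the 6 and did not reach 2-fold.

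The enzymes of ether lipids differed by near amounts. Agps stood at 652 CPM (645 to 659.7) in the Ctrl-labelled library and at 196 (192 to 199) in the CL-labelled library, with a log2 ratio of -1.74 (-1.77 to -1.70). Tmem86a stood at 225 (220.2 to 229) and 68.9 (66.6 to 71.2) CPM, and its log2 ratio was -1.70 (-1.76 to -1.65).

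Among 12341 genes with at least 50 UMIs in either library, 191 (1.55%) were at least 2-fold lower in hormone luminal-like cells of the CL-labelled library and 90 (0.729%) at least 2-fold higher, around a median log2 ratio of -0.03. Of the 6 genes 5 were past 2-fold lower, as their selection implies, and nothing is read from that count. Among the 2726 genes with at least 50 CPM in either library, ordered from the lowest ratio, Aoc1 took place 1, Gpx3 place 3, Slc5a5 place 4, Agps place 5, Tmem86a place 6 and Aqp5 place 72. Among all 12341 genes the places, in the same order of genes, were 6, 30, 45, 49, 52 and 657. At 50 CPM or more the places between and after them went to Defb1, a beta-defensin that was not on the list and stood at 160 and 35.5 CPM (place 2), and to Tph1, the enzyme that starts serotonin synthesis, at 64.4 and 19.97 (place 7). Both were named after their values were seen.

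Among the other genes of the pathways of these 6 with at least 50 UMIs none differed by 2-fold, although Aoc2, Maoa, Slc5a6, Slc5a8 and Aqp11 differed by more than Aqp5 did. Over all 12341 genes 1.55% were at least 2-fold lower and 0.729% at least 2-fold higher. Finding none in lists of this size is near that share, and nothing is read from it. Of 12 other genes of histamine and polyamine metabolism with at least 50 UMIs, none was past 2-fold in either direction, and their median log2 ratio was 0.0032. Aoc2, a related amine oxidase, was at 1.63 and 1.07 CPM (log2 ratio -0.60), Maoa, which oxidises monoamines, at 27.1 and 38.5 (0.50), and Amd1, of polyamine synthesis, at 82.9 and 105.8 (0.35). Of 22 other glutathione peroxidase, selenoprotein and antioxidant genes, none was past 2-fold, and their median was -0.02. The selenoprotein gene Selenom stood at 8.75 and 11.8 CPM (0.43), Txnrd2 at 18.4 and 15.8 (-0.22), and the intracellular peroxidase Gpx4 at 467 and 404 (-0.21).

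Of 16 other ether lipid genes none was past 2-fold either, with a median of -0.01. Pla2g6, a phospholipase, had a log2 ratio of -0.45, Tmem189, which makes the vinyl ether bond of plasmalogens, one of -0.44, and Lpcat1, which acylates lysophospholipids, one of 0.37. Gnpat, the enzyme that acts just before Agps in the peroxisome, stood at 17.9 and 15.6 CPM, a log2 ratio of -0.20 (-0.34 to -0.05), and was named after its values were seen. The iodide list gave 2 other genes with at least 50 UMIs, both transporters of the Slc5a5 family: Slc5a6 was at 46.1 and 30.3 CPM (-0.61) and Slc5a8 at 9.47 and 6.56 (-0.53). Aquaporins gave Aqp3, at 89.7 and 98.7 CPM (0.14), and Aqp11, at 1.31 and 2.03 (0.63), both higher in the CL-labelled library where Aqp5 was lower. Below that minimum, and named after their values were seen, Aqp8 had 46 and 9 UMIs (-2.54, -3.76 to -1.49) and Aqp1 had 45 and 30 (-0.77, -1.49 to -0.07), both lower in the CL-labelled library, so the aquaporins did not go one way.

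Of 16 hormone luminal regulators 1 was past 2-fold, lower in the CL-labelled library: Greb1, a target of the oestrogen receptor, at 16.4 and 5.23 CPM (log2 ratio -1.65). The transcription factor Batf had a log2 ratio of -0.86 and Stat5a, which carries the prolactin signal, one of -0.79. The list had a median of -0.28. Esr1, the oestrogen receptor, stood at 109 and 105 CPM (-0.06) and Pgr, the progesterone receptor, at 171 and 106 (-0.69), both named after their values were seen. None of 8 epithelial keratin and adhesion genes (median -0.09, with Krt14 at -0.88) and none of 10 immediate early and heat shock genes that dissociation induces (median -0.00068, with Jund at 0.27) was past 2-fold. The shares over all 12341 genes were 1.55% lower and 0.729% higher, and nothing is read from the counts in these 3 short lists.

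**Figure D2:**
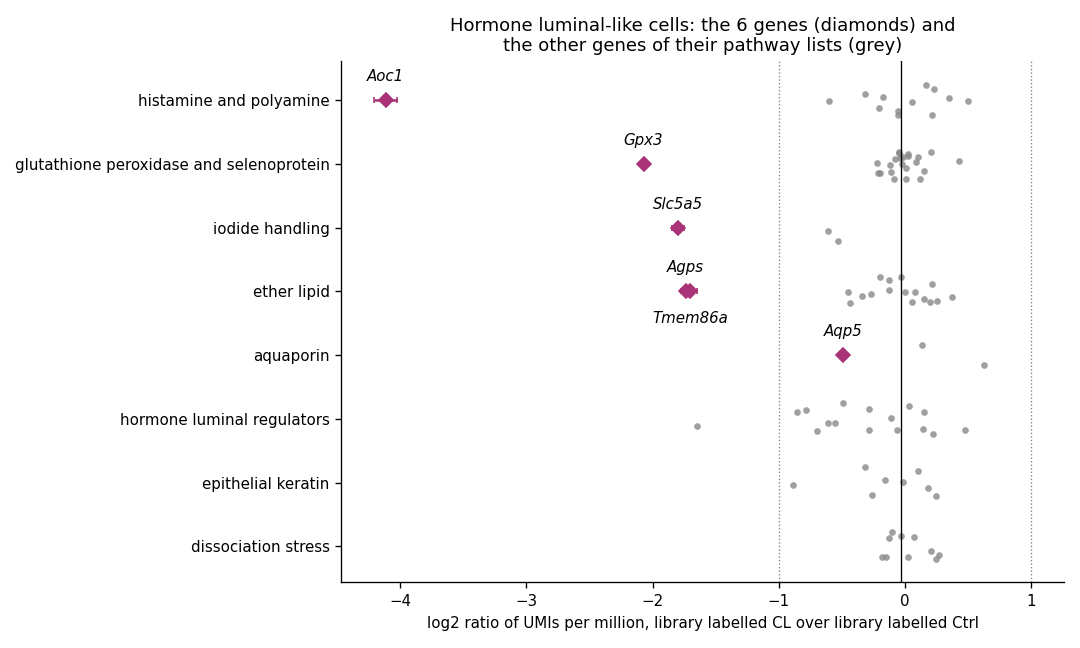
Log2 ratio of CPM in hormone luminal-like cells, CL-labelled library over Ctrl-labelled library, for the 6 genes (diamonds, with 95% exact binomial intervals) and the other genes of 8 lists with at least 50 UMIs (grey); the solid line is the median of all genes and the dotted lines mark 2-fold. The diamonds of 5 genes lie left of the 2-fold line, Aqp5 lies at -0.49, and of the grey points Greb1 alone lies beyond 2-fold.

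The class was not of 1 kind, and the level of the 6 genes varied over its clusters. In cluster 3, with 756 cells of the Ctrl-labelled library and 191 of the CL-labelled library, Gpx3 stood at 2495 CPM in the Ctrl-labelled library, against 131 to 740.4 in the other 5 clusters of the same library. Gpx3, Aoc1, Tmem86a and Slc5a5 were among the 10 leading genes of this cluster, and the clustering left them out. They were chosen as higher in the Ctrl-labelled library, which gave most cells of the cluster, so their place there is partly fixed by that choice. The same cluster had the highest levels in the Ctrl-labelled library of Aoc1 (647), Slc5a5 (432), Tmem86a (423) and Aqp5 (1072), while Agps was highest in cluster 4 (788). Cluster 2, led by genes of cell division, had the lowest levels in the Ctrl-labelled library of Gpx3 (131), Slc5a5 (66.2), Agps (347), Tmem86a (32.8) and Aqp5 (302). Aoc1 was lowest in cluster 4, at 20.9. The CL-labelled library had another order for some genes. Cluster 3 was highest there for Gpx3, Slc5a5 and Tmem86a, but cluster 1 for Aoc1 (54.9) and Agps (275) and cluster 4 for Aqp5 (763). Aoc1 (7.37) and Agps (142) were lowest there in cluster 14, and the other genes in cluster 2. Most cells of the class lay in different clusters in the libraries, in clusters 3 and 1 for the Ctrl-labelled library and in clusters 14, 4 and 5 for the CL-labelled library.

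Within clusters the direction was the same beyond counting error, except in cluster 2 for Gpx3, Tmem86a and Aqp5. Aoc1 was lower in the CL-labelled library in 6 of 6 clusters, with log2 ratios from -3.95 to -1.23, and so were Slc5a5 (-1.62 to -0.93) and Agps (-1.76 to -1.10). Gpx3 (-1.88 to -0.08) and Tmem86a (-1.36 to -0.05) were lower in 6 of 6, with the values nearest to 0 in the dividing cluster 2. There the intervals covered 0, from -0.31 to 0.14 for Gpx3 and from -0.51 to 0.41 for Tmem86a, so 5 of 6 clusters were lower beyond counting error for each. Aqp5 was lower in 5 of 6 clusters, to -1.15, and higher in cluster 2, by 0.17. These clusters split the same UMIs that chose the genes, so the values are a description. The cells of a cluster come from 1 library per group, so the clusters are not replicates.

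Cluster 3 took 85.6% of its cells from the Ctrl-labelled library after scaling for library size, and leaving it out moved the values. Without it the log2 ratios were -3.50 for Aoc1, -1.10 for Gpx3, -1.53 for Slc5a5, -1.71 for Agps, -1.07 for Tmem86a and -0.19 for Aqp5. Gpx3 then stood at 544 and 253 CPM and Tmem86a at 129.6 and 61.7, and the ratios of Gpx3, Tmem86a and Aqp5 came nearer to 0 by over 1.5 times, whereas that of Agps moved by less than its interval. With both libraries given the same mix of the 6 clusters the log2 ratios were -3.24 for Aoc1, -1.51 for Gpx3, -1.38 for Slc5a5, -1.61 for Agps, -1.06 for Tmem86a and -0.55 for Aqp5. A cluster mostly of 1 library may be that library rather than a state of the cells, and these cannot be told apart here.

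**Figure D3:**
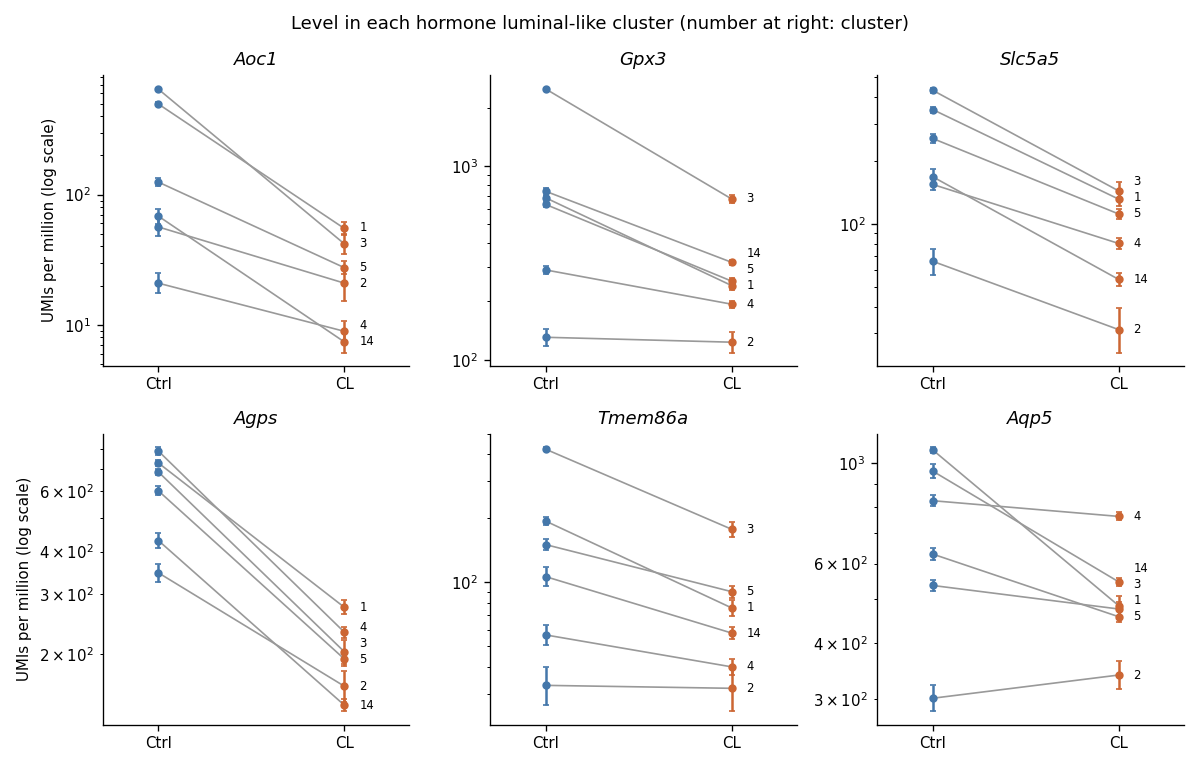
CPM (log axis, its range set for each gene) in each of the 6 hormone luminal-like clusters, with a line joining the Ctrl-labelled library (blue) to the CL-labelled library (orange) and the cluster number at the right; bars are 95% exact Poisson intervals. Lines slope down in all 6 clusters for Aoc1, Slc5a5 and Agps. For Gpx3 and Tmem86a they slope down too, but in cluster 2 by no more than counting error. The line of cluster 2 slopes up for Aqp5.

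Cells of the class were deeper in the Ctrl-labelled library, with medians of 20077.5 and 17048 UMIs, so shares of cells were compared after thinning each cell to 6929 UMIs, which left out 202 and 265 shallower cells. Aoc1 was then found in 39.2% of 1934 cells (37.1 to 41.5) in the Ctrl-labelled library and in 6.96% of 2384 cells (5.97 to 8.06) in the CL-labelled library, against 49.3% and 11.5% before thinning. Slc5a5 was found in 73.4% (71.4 to 75.4) and 38.5% (36.6 to 40.5), and Gpx3 in 83.0% (81.2 to 84.6) and 60.7% (58.7 to 62.6). Agps was found in 87.6% (86.0 to 89.0) and 58.5% (56.5 to 60.5), and Tmem86a in 50.3% (48.1 to 52.6) and 27.8% (26.0 to 29.7). Aqp5 was found in 90.8% (89.4 to 92.1) and 87.7% (86.3 to 89.0) of cells, a share near its ceiling, with means of 5.54 and 3.88 UMIs per cell.

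T and NK-like cells, set beside the class as cells of another lineage, had UMIs of the 6 genes too. With both classes thinned to 3427 UMIs, the lower of the 25th percentiles of T and NK-like cells in the libraries (71 and 78 hormone luminal-like and 53 and 174 T and NK-like cells were left out), Aoc1 was found in 5.63% of 160 T and NK-like cells and 32.9% of hormone luminal-like cells in the Ctrl-labelled library. In the CL-labelled library it was found in 0 of 562, which allows a share of up to 0.534% by a limit of 3 counts (0.654% by the exact binomial interval), and in 3.73% of hormone luminal-like cells. Gpx3 was found in 15.6% and 4.63% of T and NK-like cells (Ctrl, then CL), Slc5a5 in 6.25% and 1.42%, Tmem86a in 2.50% and 0.890%, and Aqp5 in 9.38% and 6.58%. Agps was found in 13.8% and 15.7% of T and NK-like cells, against 73.5% and 38.4% of hormone luminal-like cells. Unlike that of Aoc1, its share in T and NK-like cells was not lower in the CL-labelled library, where its droplet level was. Its level in T and NK-like cells before thinning was 54.4 and 40.4 CPM, a log2 ratio of -0.43 (-0.87 to 0.03). T and NK-like cells cannot be taken to lack Agps. In each library each gene was found in a larger share of hormone luminal-like than of T and NK-like cells, and the intervals did not overlap. T and NK-like cells had medians of 4872 and 4462 UMIs before thinning.

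**Figure D4:**
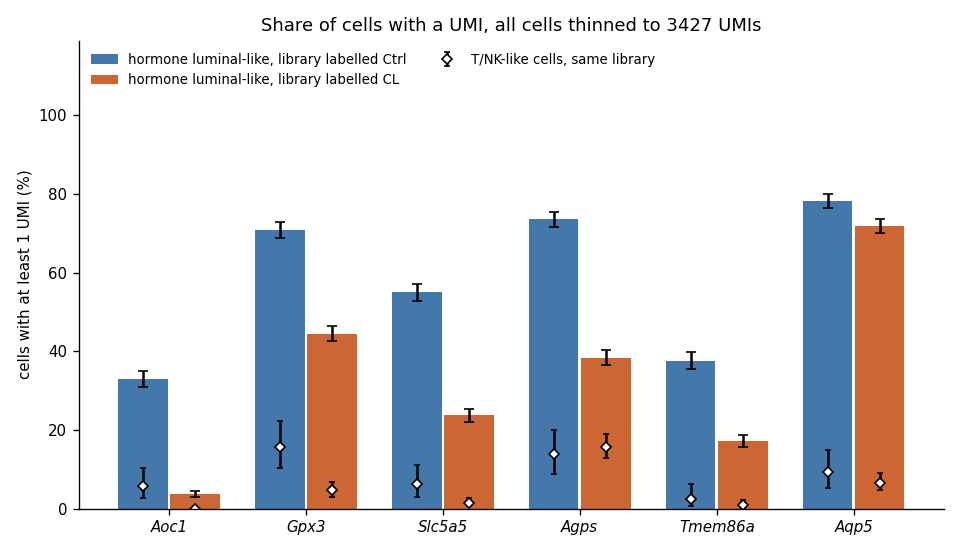
Percentage of cells with at least 1 UMI of each gene, all cells thinned to 3427 UMIs: bars are hormone luminal-like cells of the Ctrl-labelled library (blue) and of the CL-labelled library (orange), open diamonds are T and NK-like cells of the same library, and error bars are 95% exact binomial intervals. The orange bar is below the blue one for all 6 genes, from 32.9% and 3.73% for Aoc1 to 78.2% and 72.0% for Aqp5, and every diamond is below its bar.

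Free RNA in droplets without a cell held the 6 genes too, below the level of hormone luminal-like cells, and differed between the libraries in the same direction. In 54275 and 55973 droplets of 100 to 300 UMIs, Aoc1 stood at 256 CPM (Ctrl) and 12.3 (CL), Gpx3 at 695 and 145, and Slc5a5 at 231 and 58.0. Agps stood at 443 and 117, Tmem86a at 96.8 and 25.9, and Aqp5 at 547 and 371. The log2 ratios in droplets were -4.37 (-4.63 to -4.12) for Aoc1, -2.26 for Gpx3, -1.99 for Slc5a5, -1.92 for Agps, -1.90 for Tmem86a and -0.56 (-0.62 to -0.50) for Aqp5. Droplets and cells of 1 library share the tissue digest, so the droplets are no second measurement of the mice.

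Hormone luminal-like cells stood above the droplets for each gene, from 1.30-fold (1.25 to 1.36) for Slc5a5 to 2.32-fold (2.18 to 2.47) for Tmem86a in the Ctrl-labelled library. In the CL-labelled library they stood from 1.49-fold (1.37 to 1.62) for Slc5a5 to 2.66-fold (2.36 to 3.02) for Tmem86a above them. Prlr stood 2.56-fold and 2.81-fold above them. Not every marker of the class did so. Areg stood at 2726 and 2784 CPM (Ctrl, then CL) in the class against 1778 and 1458 in droplets, but Cited1 at 954 and 1330 against 1150 and 1372. In secretory luminal-like cells Aoc1, Gpx3, Slc5a5 and Tmem86a were at 0.0409 to 0.0840 of the droplet level in both libraries, and Prlr was at 0.0928 and 0.105. Aqp5 was at 0.195 and 0.243 of it there, with UMIs in 59.3% and 52.0% of secretory luminal-like cells before thinning and levels of 107 and 90.2 CPM. Agps was at 0.125 and 0.350 of the droplet level there, and its level lay between 34.9 and 69.1 CPM in the 6 other named classes with at least 30 cells in both libraries.

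Other classes differed from this in a few places. Gpx3 in fibroblast-like cells stood at 213 CPM (398 UMIs) in the Ctrl-labelled library and at 184 (294 UMIs) in the CL-labelled library, a log2 ratio of -0.21 (-0.43 to 0.01). Those levels were 0.307 and 1.27 of the droplet level, with a UMI in 46.9% and 31.0% of fibroblast-like cells. In secretory luminal-like cells the log2 ratios were -4.01 for Aoc1, -2.14 for Gpx3, -1.42 for Slc5a5, -1.02 for Tmem86a, -0.43 for Agps and -0.24 for Aqp5, so Agps differed less there than in hormone luminal-like cells. In endothelial-like cells of the CL-labelled library all 26 Aoc1 UMIs were in 1 cell of 60, and the Aoc1 level of that class rests on it.

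Within the class the 6 genes were compared with what independent detection gives. Over thinned cells, each of the 15 pairs was found together more often than the product of the 2 shares in both libraries, by a median of 1.02 times in the Ctrl-labelled library and 1.07 times in the CL-labelled library. All pairs of the 1520 and 7128 genes whose share of cells lay in the range of these 6 had medians of 1.002 and 1.005, with 54.0% and 53.4% of pairs above 1. Aoc1 and Tmem86a went together most, in 517 of 1934 cells in the Ctrl-labelled library (1.354 times) and in 74 of 2384 in the CL-labelled library (1.60 times). Of cells with Aoc1, 68.1% had Tmem86a in the Ctrl-labelled library and 44.6% in the CL-labelled library, against 38.8% and 26.6% of cells without it. Pairs with Aqp5 lay between 1.00 and 1.02 times, a ratio that cannot go far above 1 for a gene found in nearly all cells. This ceiling falls as the share of cells with a gene rises. All 6 genes were found in a larger share of cells in the Ctrl-labelled library, so these ratios do not rank the libraries.

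Compared with independent detection inside each cluster, the highest pair was Aoc1 and Tmem86a at 1.15 times in the Ctrl-labelled library and 1.48 times in the CL-labelled library, and 13 and 15 of 15 pairs were above 1, with medians of 1.01 and 1.06. On the scale of log-normalised counts per cell, Gpx3 and Tmem86a had a correlation of 0.46 over the 1934 cells of the Ctrl-labelled library and of 0.10 over the 2384 cells of the CL-labelled library. Agps and Tmem86a, both enzymes of ether lipids, had 0.0094 and 0.02. Every other pair had a higher correlation in the Ctrl-labelled library, where the levels of the genes were higher too. Aqp5 had 0.30 with Gpx3, 0.17 with Slc5a5 and 0.15 with Tmem86a in the Ctrl-labelled library, and 0.01, 0.01 and -0.02 in the CL-labelled library. These cells share 1 library and 1 depth, and the correlations are descriptions.

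All 6 genes were found in 369 thinned cells (19.1%) of the Ctrl-labelled library, where independent detection gives 9.57%, and in 20 cells (0.839%) of the CL-labelled library, where it gives 0.232%. Exactly 1 gene was found in 45 and 267 cells (Ctrl, then CL), and none in 5 and 36. Cells with all 6 and cells with 0 or 1 were both more frequent than independent detection gives, in both libraries. The shares behind that expectation were taken over the whole class, whose clusters differed in level. The excess inside clusters was not computed for these counts.

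**Figure D5:**
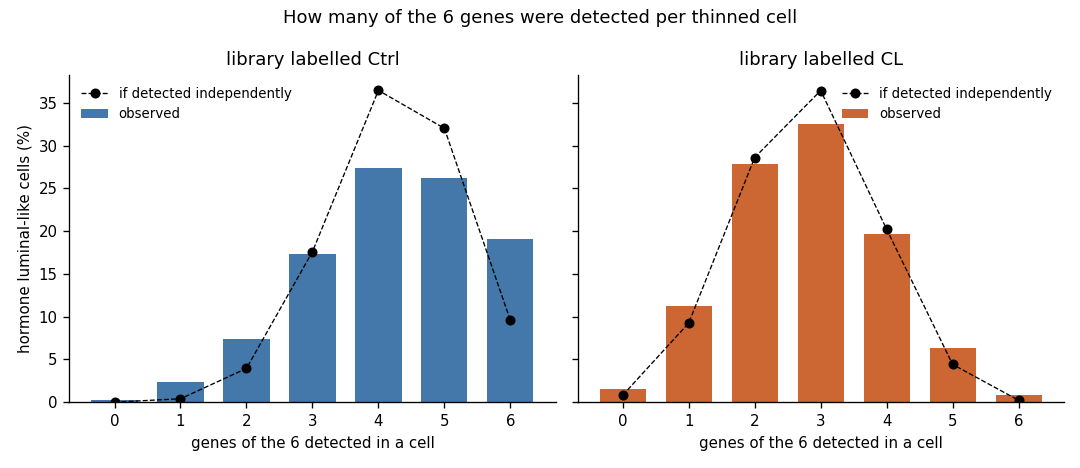
Percentage of hormone luminal-like cells, thinned to 6929 UMIs, in which 0 to 6 of the 6 genes were found (bars), and the percentage that the 6 shares give if detection were independent (points), for the Ctrl-labelled library (left) and the CL-labelled library (right). Bars exceed points at both ends, with 19.1% against 9.57% of cells at 6 genes in the Ctrl-labelled library and 0.839% against 0.232% in the CL-labelled library.

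Over 44 profiles (clusters with at least 20 cells in a library, as log2 of CPM plus 10), the genes most like each of the 6 were sought among 6925. The profiles include the contrast between the libraries in hormone luminal-like clusters by which the 6 were chosen, so likeness among the 6 partly restates that choice. Slc5a5 was most like Tmem86a (Pearson's r 0.96), then Cyp3a57 (0.96) and Agps (0.95), and Tmem86a was most like Slc5a5, then Cyp3a57 (0.95) and Twnk (0.94). Aoc1 was most like Slc5a5 (0.88), then Gatb (0.85) and Tmem86a (0.83), and Agps most like Slc5a5, then Stc2 (0.94) and Dgki (0.94). Gpx3 was most like Tmed3 (0.94), then Fzd10os (0.93) and Rasgrf1 (0.92). None of these was among the 6, nor were those of Aqp5, which was most like Krt7 (0.97), Mlph (0.96) and Naxd (0.96). The profiles also share libraries and cell types, and these are descriptions with no p. In hormone luminal-like cells the genes of like pattern outside the list were at a log2 ratio between -1.36 (Gatb) and 0.04 (Mlph), with Cyp3a57 at -1.20, Tmed3 at -1.16 and Dgki at -1.02.

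Over the 12 profiles of hormone luminal-like clusters alone, Gpx3 and Tmem86a followed each other most closely (r 0.95), then Slc5a5 and Tmem86a (0.89), and Aoc1 and Aqp5 least (0.29). These profiles too hold the difference between the libraries that chose the genes, which fixes part of each r. Agps had 0.55 with Gpx3 and 0.51 with Tmem86a, and 0.81 with Slc5a5. Markers of other cell types were low in the class: secretory luminal markers summed to 625 CPM in the Ctrl-labelled library and 561.5 in the CL-labelled library, with 1 of 10 at 0 in each, and T and NK markers to 11.1 and 22.95, with 1 of 10 at 0 in each. The part of these and of the higher mitochondrial share in the Ctrl-labelled library (median 4.40% against 4.15%) in the differences was not tested.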

How the data were processed

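Single cells of the mammary gland were measured by droplet RNA sequencing with a 3′ kit, in 1 library per group. The deposited counts are whole UMIs per gene and barcode, aligned and counted by the authors with Cell Ranger to mm10 (version 2.1.1 in the submitters' processing notes, 4 in the matrix header). The matrices hold 6794880 barcodes each and were not filtered, and the deposited barcode lists do not index their columns, so as many barcodes with most UMIs were taken as the lists have lines (7217 for the library labelled Ctrl, 10555 for that labelled CL).

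Filters of at least 500 genes and a mitochondrial share of at most 15% left 6297 and 9335 cells. Doublets came from Scrublet scores: its automatic threshold for the library labelled Ctrl, 0.206, was used for both, because the automatic threshold for the other marked 0 cells. This removed 392 and 491 cells. Cells were clustered with scanpy 1.11.5 (numpy 2.4.6, scipy 1.17.1, Python 3.11) on 2000 variable genes without the 6 genes, 30 components, 15 neighbours and Leiden resolution 1. A cluster was named when at least 3 markers of its best class were 2-fold above the median of all clusters (CPM plus 10) and found in at least 10% of its cells. No second class could reach 60% of the score of the best, and no other class could have more markers among the 10 leading genes. Of 26 clusters 3 stayed unnamed.

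CPM are summed UMIs per 1000000 UMIs of a class. Intervals are 95% exact Poisson (levels) or Clopper-Pearson (shares and ratios). No differential test was run, since 1 library per group allows none. Shares of cells were computed after thinning to 6929 UMIs, the 10th percentile of the class in the shallower library. Droplets of 100 to 300 UMIs gave the level of free RNA. Genes needed 50 UMIs in either library to be compared. Up to 3 genes per pathway list were named by largest ratio, and the 3 most similar genes per member by correlation of log2(CPM + 10). Of 32285 identifiers 32158 were in the annotation. The computation was tested on simulated data, and 14 alternatives were planned. The 6 genes, the lists and the rules were chosen with earlier results of these data known.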

Additional observations from a re-analysis of the deposited data

Results flagged for a closer look

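In endothelial-like cells Aoc1 and Aqp5 differed between the libraries in the direction opposite to that in hormone luminal-like cells. Aoc1 had a log2 ratio (CL over Ctrl) of 3.85, from 1 UMI in 53 cells and 26 UMIs in 60 cells, and all 26 UMIs were in 1 cell. Aqp5 had a log2 ratio of 1.21 (interval 0.24 to 2.31), from 11 and 46 UMIs, of which a single cell of the library labelled CL held 14. Prlr stood at 94.5 and 545 CPM in the same class, with up to 112 UMIs in 1 cell of the library labelled CL. The difference between the classes was not tested, since there is 1 library per group.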

How the results depend on the processing

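The log2 ratios of the 6 genes stayed below 0 under every alternative run, but the order of the libraries in the other measures did not always hold. The share of UMIs in the class was higher in Ctrl (90.9% against 76.7%) except without cluster 3. The median co-detection was higher in CL except with the unnamed cluster included (1.0242 in Ctrl, 1.0201 in CL). Its ceiling is lower in Ctrl, where the genes were found in more cells, so this order does not show in which library they go together more. Leaving out cluster 3, of which over 80% of cells came from 1 library, moved most values: the log2 ratio was -3.50 for Aoc1, -1.10 for Gpx3, -1.53 for Slc5a5, -1.07 for Tmem86a and -0.19 for Aqp5, and the share of UMIs of the 6 genes in hormone luminal-like cells was 42.4% (Ctrl) and 69.9% (CL), lower because that cluster's cells then counted as outside the class. With mitochondrial UMIs at most 5%, Tmem86a was at -1.76, Aqp5 at -0.56, and the shares were 94.3% and 89.0%; with no such limit the CL share was 73.8%. A higher minimum of genes per cell gave a CL share of 74.6%, Leiden resolution 2 one of 76.3%, and keeping doublets gave 81.3% and 67.5%. With the 6 genes allowed in clustering the Ctrl share was 92.0%. With each cell named alone Agps was at -1.78, Aqp5 at -0.57, and the shares were 93.3% and 87.1%. The mean of each cell's CPM gave Gpx3 at -2.15 and Aqp5 at -0.54. Median ratio scaling gave Gpx3 at -2.04, Agps at -1.70 and Aqp5 at -0.45, and subtracting free RNA gave Agps at -1.99. Including the unnamed cluster led by hormone luminal markers, an alternative chosen after seeing the data, gave Agps at -1.77, Aqp5 at -0.56, and shares of 95.2% and 90.3%. Apart from the first, the cause of these shifts was not tested. The median co-detection stayed within 1.01 to 1.03 (Ctrl) and 1.02 to 1.09 (CL) in 12 alternatives each. No paired analysis was possible because each group has 1 library. Counting intervals do not cover differences between mice.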
